A study of Mus musculus with 2 samples.

Results

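The salt-inducible kinase genes Sik1, Sik2 and Sik3, the class IIa histone deacetylase genes Hdac4, Hdac5, Hdac7 and Hdac9, and the MEF2 transcription factor genes Mef2a, Mef2c and Mef2d were followed in osteoblastic cells given parathyroid hormone (PTH). These 10 rows were taken by gene symbol from a table of 55487 rows, and 9 of them reached 20 counts when both libraries were added. The cells were MC3T3-E1, a line of osteoblast precursors derived from mouse calvaria. One group received 10 nM PTH and was sampled at 1 h, and the other was left untreated and also carries the label of 1 h. Both were grown in the same serum-containing medium and seeded the day before. Each group was 1 RNA-seq library from bulk cells, so the differences given here could not be checked against replicates and carry no p-value.

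Salt-inducible kinases belong to the AMPK-related kinases and are switched on by the kinase LKB1. They phosphorylate the CRTC coactivators of CREB and the class IIa deacetylases, which 14-3-3 proteins then hold in the cytoplasm. Receptors that raise cyclic AMP, such as the PTH receptor, activate protein kinase A, which phosphorylates and restrains the salt-inducible kinases. CRTC proteins and class IIa deacetylases can then enter the nucleus, where the deacetylases bind and repress MEF2 factors. In bone this route is known for its part in the control of Sost, the gene of the Wnt inhibitor sclerostin, and of Tnfsf11, the gene of RANKL. Read counts measure RNA, and carry no information on phosphorylation or on where a protein lies in the cell.

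The PTH library had 7.70 times the scaled Sik1 reads of the untreated library and 3.76 times the Hdac5 reads, while the other 7 measured genes lay between ratios of 0.843 and 1.46. Ratios are counts scaled by effective library size, PTH over untreated, and the range in brackets after a ratio is its 95% exact counting interval. The rule of size asked that the whole interval lie beyond 1.5-fold. By this rule 2 of the 9 measured genes were higher in the PTH library and none was lower, against a background of 5.39% of the 16408 compared rows higher and 3.54% lower. The median log2 ratio was 0.07 over the 9 genes and 0.00 over all compared rows. In bulk libraries, more cells that express a gene and more RNA per cell cannot be told apart.

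Windows around the annotated start sites are shown for 4 genes, because Hdac5 was past the rule, Hdac4 is a close relative that was not, Mef2d had the next highest ratio, and Mef2a shares a motif with Hdac5. Each window runs from 250 bases before to 30 bases after the start in RefSeq (build GRCm38.p6, of the mm10 assembly), read 5′ to 3′ on the strand of the gene. Capitals mark letters of the searched motifs. These were the full cyclic AMP response element TGACGTCA, its half-site TGACG on either strand, and the MEF2 motif, whose pattern is the same on both strands.
Hdac5 (chr11:102230143-102230422, minus strand): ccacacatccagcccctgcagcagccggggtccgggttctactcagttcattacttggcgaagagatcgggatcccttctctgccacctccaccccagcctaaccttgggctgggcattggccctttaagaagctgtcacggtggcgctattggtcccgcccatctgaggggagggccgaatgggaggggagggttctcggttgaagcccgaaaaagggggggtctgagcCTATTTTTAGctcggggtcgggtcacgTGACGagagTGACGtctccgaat
Hdac4 (chr1:92180312-92180591, minus strand): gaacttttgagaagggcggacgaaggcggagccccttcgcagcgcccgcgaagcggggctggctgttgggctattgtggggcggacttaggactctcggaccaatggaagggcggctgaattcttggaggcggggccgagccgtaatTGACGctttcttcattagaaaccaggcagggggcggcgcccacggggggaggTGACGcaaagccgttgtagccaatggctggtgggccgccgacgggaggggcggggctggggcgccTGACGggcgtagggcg
Mef2d (chr3:88142122-88142401, plus strand): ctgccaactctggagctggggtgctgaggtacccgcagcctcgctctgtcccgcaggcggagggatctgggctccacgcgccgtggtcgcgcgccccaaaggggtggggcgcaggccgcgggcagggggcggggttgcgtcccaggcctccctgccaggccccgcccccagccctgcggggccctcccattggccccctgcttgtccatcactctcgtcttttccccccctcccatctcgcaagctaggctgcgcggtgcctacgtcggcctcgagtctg
Mef2a (chr7:67372829-67373108, minus strand): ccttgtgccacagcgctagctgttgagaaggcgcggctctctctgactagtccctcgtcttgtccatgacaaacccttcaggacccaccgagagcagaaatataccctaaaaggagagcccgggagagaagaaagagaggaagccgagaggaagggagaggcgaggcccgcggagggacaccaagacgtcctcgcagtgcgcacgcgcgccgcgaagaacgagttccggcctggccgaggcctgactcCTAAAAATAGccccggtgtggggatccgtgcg

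The Hdac5 window holds 2 half-sites, whose first bases lie 8 and 17 bases into the transcript counting the start as 1, and a MEF2 motif whose first base is at -20. Hdac4 holds 3 half-sites, starting at -103, -51 and 15. The Hdac4 window lies within the annotated gene, which reaches upstream to base 92195699 of chromosome 1. Mef2d holds none of the searched letters, and Mef2a holds a MEF2 motif that starts at -2. RefSeq windows were matched for 9 of the 10 genes (not Sik1), with 15 windows in all. Half-sites were found in 4 of the 15 windows, 1 each of Sik2, Sik3, Hdac4 and Hdac5, a full element in none, and a MEF2 motif in 2. Among all 32851 windows of this length, 19.9% hold a half-site, 4.69% hold 2 or more, 1.74% hold a full element, 3.07% hold a MEF2 motif, and 0.341% hold a half-site together with a MEF2 motif. The shares for 2 or more half-sites and for both motifs together were not planned beforehand, and both describe what the Hdac5 window holds. The full element contains the half-site on both strands. Of the 4 genes with half-sites, 3 were not past the rule. Over all compared rows, 5.39% were higher in the PTH library and 3.54% lower. Sik1 had no window and is outside this count, and a link of half-sites with ratios was not tested. The motif matches describe letters in a window and are not evidence that a factor binds there.

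Sik1, a kinase gene that is itself a known target of CREB, had 32290 reads in the PTH library and 4072 in the untreated library. In counts per 1000000 of the scaled library size (CPM) this was 467 CPM in the PTH library and 60.6 CPM in the untreated library, a ratio of 7.70 (7.45 to 7.96). Among the 9549 rows with at least 1000 counts in total, 18 had a higher log2 ratio. The PTH library held 406 CPM more, and 18 protein-coding rows gained more. Sik1 lies on chromosome 17 (GRCm38, 31844250 to 31855804, minus strand) and shares no annotated exon with another gene. With the interval widened for an assumed coefficient of variation of 0.2 between cultures, the lower bound was 4.44, and by the widened interval 2.89% of all compared rows were higher in the PTH library and 1.63% lower.

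The other kinase genes of the family had similar reads in both libraries. Sik2, a kinase known from fat cells, had 1061 reads in the PTH library and 1187 in the untreated library, a ratio of 0.868 (0.798 to 0.944). Its row is uncertain by strand, since 15.0% of its exonic length lies opposite exons of Ppp2r1b, whose own ratio was 0.870 (0.824 to 0.918). Sik3, a kinase needed for normal skeletal growth in mice, had 3109 reads in the PTH library and 2807 in the untreated library, a ratio of 1.08 (1.02 to 1.13). Neither was past the rule. Taken as a sum, Sik2 and Sik3 had 4170 reads in the PTH library and 3994 in the untreated library, a ratio of 1.01 (0.971 to 1.06).

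**Figure D1:**
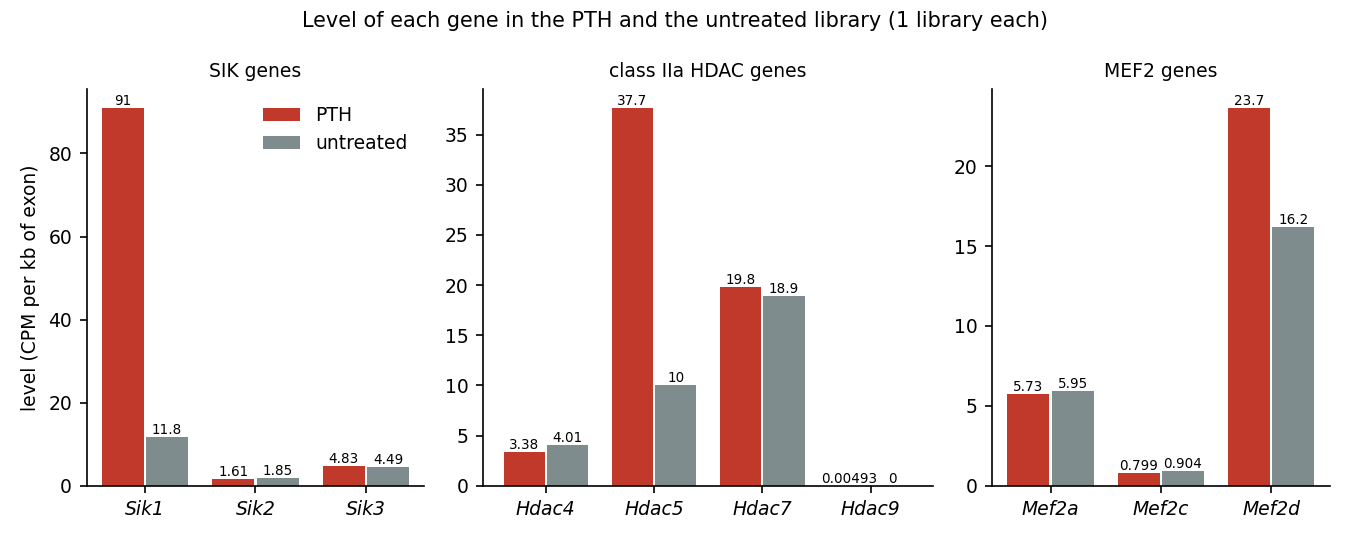
Level of each gene as CPM per kilobase of exon (CPM per kb), with the PTH library in red at the left of each pair and the untreated library in grey; each bar is 1 library, so there are no error bars. Sik1 stands at 91.0 with PTH and 11.8 untreated and Hdac5 at 37.7 with PTH and 10.0 untreated, while Hdac9 is at or near 0 in both.

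To compare levels between genes, reads were divided by the exonic length of each gene (CPM per kb). In the PTH library Sik1 was at 91.0 CPM per kb, Sik3 at 4.83 and Sik2 at 1.61, and in the untreated library Sik1 was at 11.8, Sik3 at 4.49 and Sik2 at 1.85. Sik1 was thus the highest of the 3 kinases in both libraries. It made up 93.4% of the family's CPM per kb in the PTH library and 65.1% in the untreated library. Of the plain reads of the family, Sik1 took 88.6% in the PTH library (exact binomial interval 88.2% to 88.9%) and 50.5% in the untreated library (49.4% to 51.6%). The family as a sum stood at 97.4 CPM per kb in the PTH library and 18.2 in the untreated library.

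Contrasts within the family do not depend on how the libraries were scaled. The Sik1 to Sik2 ratio was 8.87 times higher in the PTH library than in the untreated library (8.11 to 9.71), and the Sik1 to Sik3 ratio 7.16 times higher (6.74 to 7.61). The Sik3 to Sik2 ratio was 1.24 times higher (1.12 to 1.37). These intervals too cover counting error only.

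Among the class IIa deacetylases, Hdac5 was the gene past the rule. Its product is a deacetylase whose entry into the nucleus is controlled by phosphorylation. It had 22865 reads in the PTH library and 5900 in the untreated library, a ratio of 3.76 (3.66 to 3.87), which was 331 CPM in the PTH library and 87.9 CPM in the untreated library. Among the rows with at least 1000 counts, 51 had a higher log2 ratio. The lower bound of the widened interval was 2.17. Hdac5 lies on chromosome 11 (102194432 to 102230166, minus strand), and 1.26% of its exonic length is shared with the microRNA gene Mir8101, which had 1 read in each library.

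Hdac4, which restrains hypertrophy of growth plate cartilage in mice, had 3697 reads in the PTH library and 4257 in the untreated library, a ratio of 0.843 (0.807 to 0.882). Exons of a long intergenic RNA gene, not analysed here, lie opposite 22.4% of its exonic length, so its row is uncertain by strand. Hdac7, known from blood vessels and thymocytes, had 9262 reads in the PTH library and 8582 in the untreated library, a ratio of 1.05 (1.02 to 1.08). Hdac4 and Hdac7 were not past the rule. Hdac9 had 5 reads in the PTH library and was listed at 0 in the untreated library, and by sampling error a listed 0 still allows up to 3 reads. It was left out of the comparison, and no fold is given.

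Hdac7 was the highest class IIa gene per length in the untreated library and Hdac5 the highest in the PTH library. In the PTH library Hdac5 was at 37.7 CPM per kb, Hdac7 at 19.8 and Hdac4 at 3.38, and in the untreated library Hdac7 was at 18.9, Hdac5 at 10.0 and Hdac4 at 4.01. Hdac5 made up 61.9% of the family's CPM per kb in the PTH library and 30.4% in the untreated library, and Hdac7 made up 32.6% in the PTH library and 57.4% in the untreated library. The Hdac5 to Hdac7 ratio was 3.59 times higher in the PTH library (3.45 to 3.74), and the Hdac5 to Hdac4 ratio 4.46 times higher (4.23 to 4.70). Without Hdac5 the other 3 genes summed to 12964 reads in the PTH library and 12839 in the untreated library, a ratio of 0.981 (0.957 to 1.00).

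**Figure D2:**
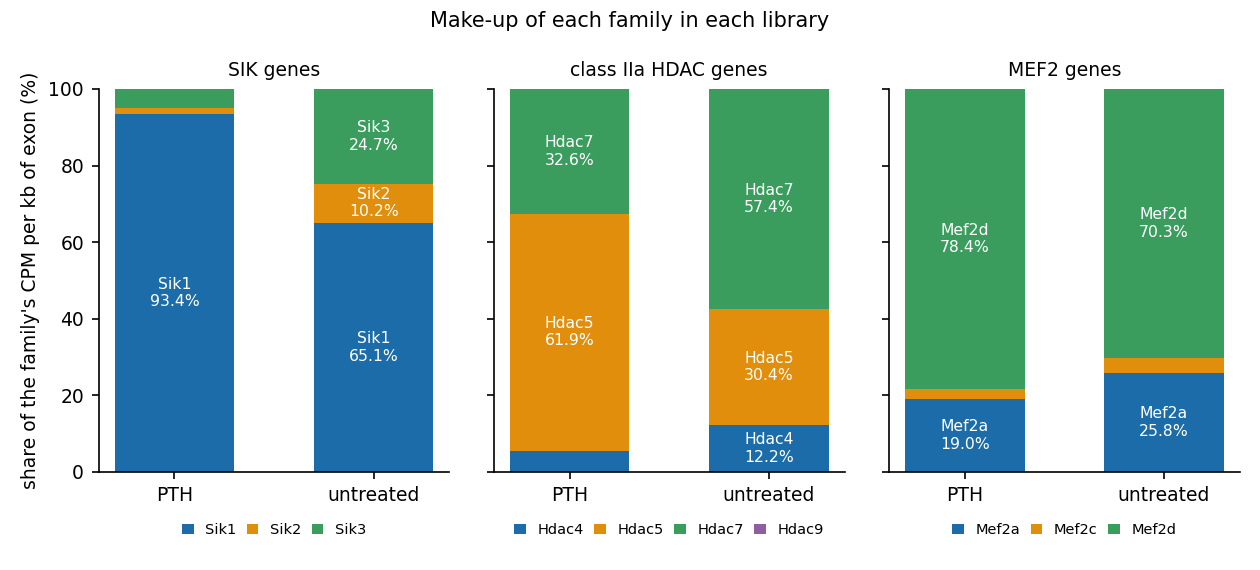
Share of each gene in the summed CPM per kb of its family, in percent, with the PTH library at the left and the untreated library at the right of each panel. Sik1 fills 93.4% of the PTH bar and 65.1% of the untreated bar, Hdac5 61.9% of the PTH bar and 30.4% of the untreated bar, and Mef2d 78.4% of the PTH bar and 70.3% of the untreated bar.

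None of the MEF2 genes was past the rule, and Mef2d lay just inside the limit. MEF2 proteins are DNA-binding factors first described in muscle that also act in bone, vessels and neurons. Mef2d had 9791 reads in the PTH library and 6520 in the untreated library, a ratio of 1.46 (1.41 to 1.505). The lower bound lay under 1.5, and 399 of the 9549 rows with at least 1000 counts had a higher log2 ratio. An antisense RNA lies opposite 8.87% of its exonic length, with 35 reads in the PTH library and 27 in the untreated library.

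Mef2a, the MEF2 gene with the next most reads, had 5818 reads in the PTH library and 5868 in the untreated library, a ratio of 0.963 (0.928 to 0.999). Mef2c, whose product is required in mice for normal cartilage hypertrophy and acts on Sost in osteocytes, had 868 reads in the PTH library and 954 in the untreated library, a ratio of 0.884 (0.805 to 0.970). Per length, Mef2d was the highest in both libraries, at 23.7 CPM per kb in the PTH library and 16.2 in the untreated library. Mef2a was at 5.73 in the PTH library and 5.95 in the untreated library, and Mef2c at 0.799 in the PTH library and 0.904 in the untreated library. The Mef2d to Mef2a ratio was 1.51 times higher in the PTH library (1.44 to 1.59), and the Mef2d to Mef2c ratio 1.65 times higher (1.496 to 1.82). For Mef2a against Mef2c the interval of this contrast included 1, at 1.09 (0.986 to 1.20).

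**Figure D3:**
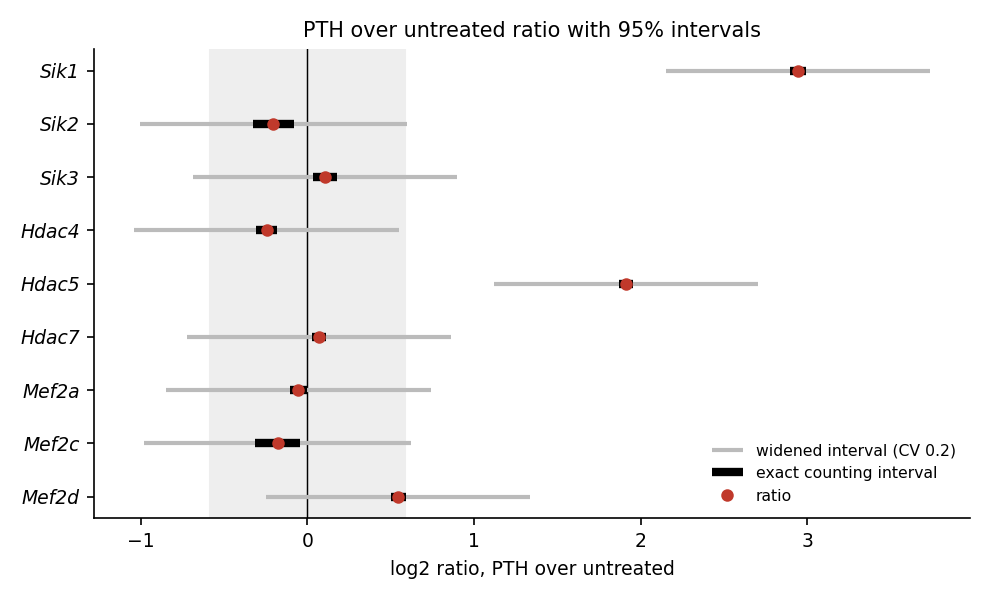
Log2 ratio, PTH over untreated, of the 9 genes with enough counts; points are ratios, black bars the 95% exact counting intervals, grey bars the intervals widened for an assumed coefficient of variation of 0.2, and the shaded band the range within 1.5-fold. Sik1 and Hdac5 lie beyond the band with both intervals, and the grey bars of the other 7 genes cross 0.

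All 9 counting intervals left out a ratio of 1, with 5 above it and 4 below it. For Sik3 and Hdac7 the interval reached 1 with total-count scaling, at 1.05 (0.996 to 1.10) and 1.02 (0.992 to 1.05), and for Mef2a when scaled on protein-coding rows, at 0.970 (0.935 to 1.01). That of Hdac7 also reached 1 with upper-quartile factors, at 1.03 (0.9991 to 1.06). That of Mef2a also did so when scaled on rows with a total of 100 or more, at 0.965 (0.931 to 1.001). With the interval widened for a coefficient of variation of 0.2, the intervals of the 7 genes not past the rule all included 1. With 0.1, that of Mef2d left out 1, at 1.46 (1.10 to 1.93), and those of the other 6 included it. The central 95% of rows with 1000 counts or more had log2 ratios from -0.56 to 0.85. Sik1, at 2.94, and Hdac5, at 1.91, lay outside that range, and the other 7 genes lay inside it.

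Across the 3 families the order of levels differed between the libraries at the top and was the same below it. In the PTH library the order per length was Sik1, Hdac5, Mef2d, Hdac7, Mef2a, Sik3, Hdac4, Sik2, Mef2c and Hdac9. In the untreated library it was Hdac7, Mef2d, Sik1, Hdac5, Mef2a, Sik3, Hdac4, Sik2, Mef2c and Hdac9. With 1 library per group the spread of these levels is unknown, so neighbours in the order cannot be separated beyond counting error. Dividing by the longest annotated transcript instead kept the order in the PTH library and moved the untreated order to Hdac7, Mef2d, Hdac5, Mef2a, Sik1, Hdac4, Sik3, Sik2, Mef2c and Hdac9. Among protein-coding rows compared, 96.8% had a lower level than Sik1 in the PTH library and 71.5% in the untreated library. For Hdac5 these shares were 91.1% in the PTH library and 67.7% in the untreated library.

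In each family the gene with the highest ratio was also the shortest from first to last annotated base. Sik1 spans 11.6 kb, against 116 kb for Sik2 and 211 kb for Sik3. Hdac5 spans 35.7 kb, against 51.8 kb for Hdac7, 267 kb for Hdac4 and 870 kb for the unmeasured Hdac9. Mef2d spans 29.7 kb, against 142 kb for Mef2a and 163 kb for Mef2c. This was noticed after the ratios were seen and has no test. Of all 12771 compared protein-coding rows, 4.49% were higher in the PTH library by the rule and 3.06% lower. By length, 5.16% of the 5732 genes under 20 kb were higher, 4.28% of those from 20 to 50 kb, 3.98% from 50 to 100 kb, 3.12% from 100 to 200 kb and 3.24% of those of 200 kb or more. The median length was 18.7 kb for rows higher in the PTH library, 14.7 kb for rows lower in it and 24.2 kb for the rest. Rows past the rule also had fewer reads, with median totals of 1061 for higher, 321 for lower and 3647 for the rest.

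**Figure D4:**
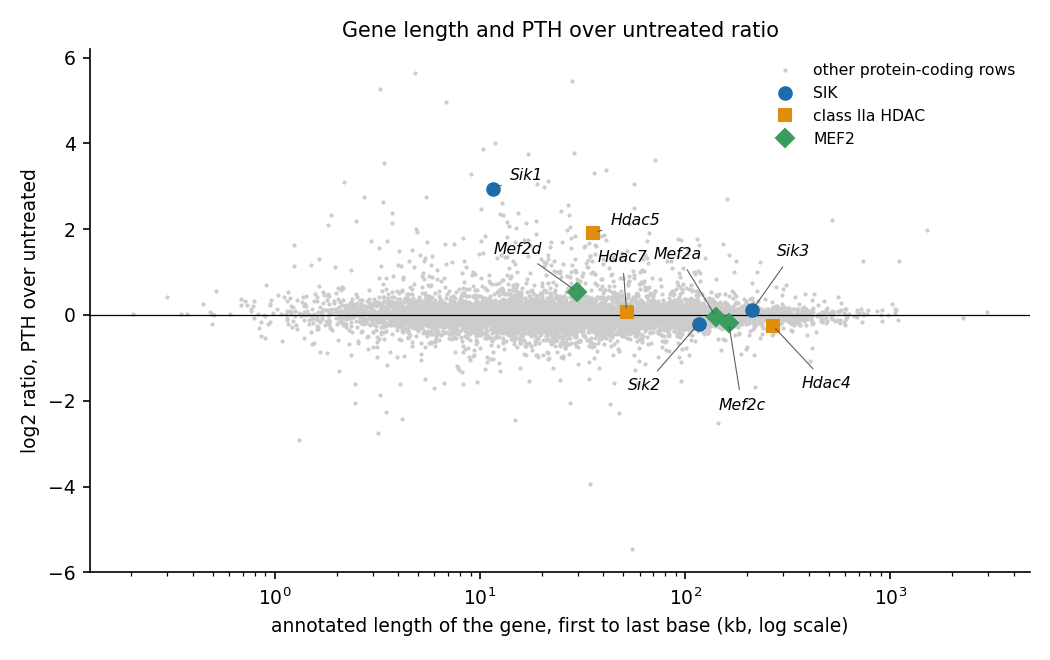
Annotated gene length in kb on a log scale against the log2 ratio, PTH over untreated, for 9168 protein-coding rows with at least 1000 counts (grey), with the 9 measured SIK, class IIa HDAC and MEF2 genes in colour. In each family the shortest gene, Sik1, Hdac5 or Mef2d, is the highest point.

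The rows most like Sik1 and Hdac5 were taken as the 5 protein-coding rows nearest in log2 ratio, among 9168 with at least 1000 reads in total and 10 in each library. Likeness here rests on 2 libraries only. For Sik1 these were Nmrk1, a nicotinamide riboside kinase gene (ratio 7.96), Gprc5a, an orphan receptor gene (8.30), Vdr, the vitamin D receptor gene (8.33), Ddit4, a gene whose product restrains mTOR (8.51), and the predicted gene Gm49450 (8.70). For Hdac5 they were Xdh, the xanthine dehydrogenase gene (3.74), Hic1, a transcriptional repressor gene (3.82), Tnfaip6, which encodes a hyaluronan-binding protein (3.68), Wnt9a, a Wnt ligand gene (3.92), and Pfkfb4, a regulator of glycolysis (3.62).

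None of 5 genes of the LKB1 complex, which activates salt-inducible kinases, was past the rule, and the median over their log2 ratios was 0.00. Stk11, which encodes LKB1, came closest, with 8644 reads in the PTH library and 5606 in the untreated library, a ratio of 1.497 (1.45 to 1.55). Cab39, the gene of its scaffold MO25, was at 1.01 (0.979 to 1.04). None of the 3 genes of CRTC coactivators, substrates of these kinases, was past the rule either. Crtc1 was at 1.03 (0.974 to 1.10) and Crtc2 at 0.941 (0.889 to 0.997), with a median of -0.09. Both lists stand against 5.39% of all compared rows higher in the PTH library and 3.54% lower.

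Among 9 measured genes of other AMPK-related kinases, 1 was lower in the PTH library, against 3.54% of all compared rows, and the median over the 9 log2 ratios was -0.06. The lower gene was Nuak2, a kinase linked to actin and cell contraction, with 1552 reads in the PTH library and 4353 in the untreated library, a ratio of 0.346 (0.327 to 0.367). Within this kinase family Sik1 was therefore past the rule in one direction and Nuak2 in the other. Of the other kinases that phosphorylate class IIa deacetylases, none of 10 measured was past the rule and the median was 0.09. This stands against 5.39% of all compared rows higher in the PTH library and 3.54% lower. Prkd3, a protein kinase D gene, was at 1.47 (1.44 to 1.503), and Camk2d, a calcium-dependent kinase gene, at 1.08 (1.04 to 1.12).

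No gene was past the rule in 4 further lists, of 14-3-3 proteins, PP2A subunits, the HDAC3 corepressor complex and other zinc-dependent deacetylases. None of 7 genes of 14-3-3 proteins was past it (median log2 ratio 0.06), and Ywhae and Ywhaz were at 1.04 (1.03 to 1.06) and 1.12 (1.10 to 1.14). None of 6 subunit genes of PP2A, a phosphatase that acts on these deacetylases, was past it, with a median of -0.07. Of these, Ppp2r1a was at 1.01 (0.990 to 1.03) and Ppp2ca at 1.02 (1.00 to 1.05), and Ppp2ca is uncertain by strand because 41.3% of its exonic length lies opposite other exons. None of 5 genes of the HDAC3 corepressor complex, which lends class IIa proteins catalytic activity, was past it. Ncor1 was at 1.03 (1.00 to 1.05) and Tbl1x at 0.919 (0.895 to 0.945), and the median was 0.03. None of 7 genes of other zinc-dependent deacetylases was past it, with a median of 0.07, Hdac1 at 1.18 (1.14 to 1.22) and Hdac2 at 1.00 (0.976 to 1.03). Hdac3 stands in both of these lists. Of the class IIa and other zinc-dependent deacetylase genes measured, Hdac5 was the one past the rule. Of all compared rows, 5.39% were higher in the PTH library and 3.54% lower.

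None of 12 measured genes of MEF2 cofactors and activating kinases was past the rule, and their median log2 ratio was 0.02. The shares over all compared rows were 5.39% higher in the PTH library and 3.54% lower. The p38 activator gene Map2k3 was at 0.959 (0.935 to 0.983), and Ppp3r1, a calcineurin subunit gene, at 1.06 (1.03 to 1.08). Ppp3r1 shares 14.3% of its exonic length with other exons on the same strand. Mef2b, the remaining gene of the MEF2 family, was listed at 0 in both libraries.

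Known MEF2 target genes lay in both directions. Of 10 measured members of the list, 3 were higher in the PTH library, 2 lower and 5 neither, against 5.39% higher and 3.54% lower over all compared rows, and the median log2 ratio was 0.01. Bdnf, a neurotrophin gene, was at 2.83 (2.49 to 3.24), with 14.4% of its exonic length opposite other exons. Klf4, a zinc finger factor gene, was at 2.37 (2.30 to 2.45), and Nr4a1, an orphan nuclear receptor gene named after its value was seen, at 2.21 (2.18 to 2.24). Jun, an AP-1 subunit gene, was at 0.149 (0.142 to 0.156), and Arc, an activity-regulated gene best known from neurons, had 760 reads in the PTH library and 3520 in the untreated library, a ratio of 0.210 (0.194 to 0.227). With the interval widened for 0.2, Bdnf, Jun and Arc were still past the rule, against 2.89% of all compared rows higher and 1.63% lower. These genes also answer to other factors.

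Of the PTH outputs tied to this route, Tnfsf11 had 348 reads in the PTH library and 12 in the untreated library, a ratio of 28.2 (15.9 to 55.0). Mmp13, a collagenase gene that HDAC4 and MEF2C have been described to control in rat osteoblastic cells, had 2662 reads in the PTH library and 2697 in the untreated library, a ratio of 0.958 (0.908 to 1.01). Sost was listed at 0 in both libraries. Of the 2 measured genes of this list, 1 was higher and 1 was neither, against 5.39% of all compared rows higher and 3.54% lower. The log2 ratios were 4.76 for Tnfsf11 and -0.06 for Mmp13, so their median of 2.35 is a midpoint that describes neither gene.

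**Figure D5:**
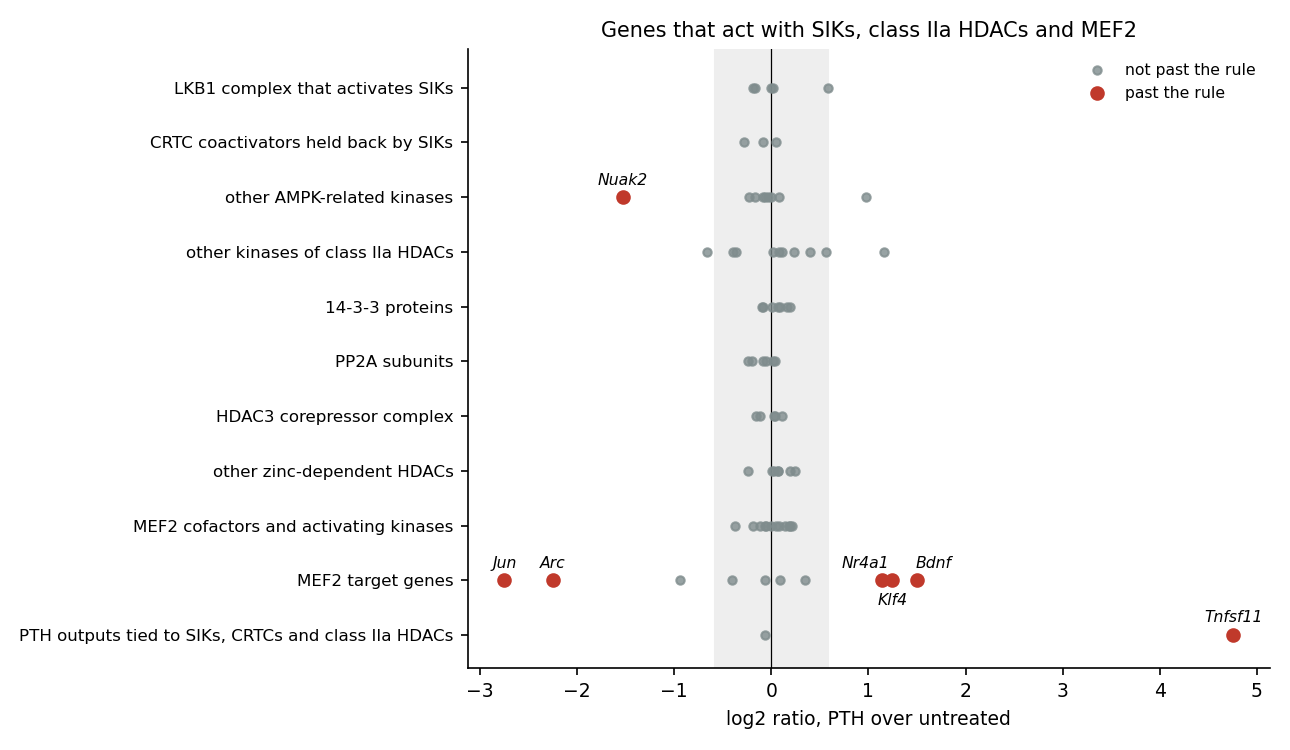
Log2 ratio, PTH over untreated, of the measured genes of each list (1 point a gene), in red and named where the counting interval lay wholly beyond 1.5-fold and in grey otherwise; the shaded band is the range within 1.5-fold. Red points are Nuak2, Jun and Arc on the lower side and Nr4a1, Klf4, Bdnf and Tnfsf11 on the higher side.

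The libraries held 70036872 counts with PTH and 66302211 untreated. All 9 osteoblast markers were measured, summing to 56666 CPM in the PTH library and 54166 in the untreated library, mostly Col1a1 and Col1a2. The lowest of the 9 was Bglap, at 1.26 CPM in the PTH library and 0.849 in the untreated library. Sp7, the gene of the osteoblast factor osterix, was the one past the rule, at 0.418 (0.397 to 0.441), but not with the interval widened for 0.2. By the rule, 5.39% of all compared rows were higher in the PTH library and 3.54% lower. As for other cell types, the sum over 8 muscle markers was 0.940 CPM in the PTH library and 2.77 in the untreated library, with 5 at 0 in both, Myod1 and Myf5 among them, and Acta1 lower by the rule. Adipocyte markers (2 of 6 measured) summed to 0.795 CPM in the PTH library and 0.685 in the untreated library, endothelial markers (1 of 6) to 1.56 in the PTH library and 1.28 in the untreated library, and osteocyte markers (2 of 5) to 1.20 in the PTH library and 1.64 in the untreated library. Macrophage and osteoclast markers (3 of 7) summed to 96.5 CPM in the PTH library and 87.0 in the untreated library, mostly Ctsk, with Ptprc, Adgre1 and Itgam at 0. The Itgam value is uncertain, since 68.7% of its exonic length is shared with other exons on the same strand. Chondrocyte markers (3 of 6) summed to 716 CPM in the PTH library and 462 in the untreated library, mostly Col2a1, with Acan at 0 and Sox9 higher by the rule, at 3.27 (3.14 to 3.40). The part of these markers in the results above was not tested.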

How the data were processed

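RNA of 1 PTH-treated and 1 untreated MC3T3-E1 library was sequenced. The authors deposited 1 table of raw counts, in 1 column for each library. Reads were aligned with HISAT2 to mm10, per the submitters' processing notes; the counting tool, annotation and strand setting were not given in the sources used here. Of 55487 rows, 55227 matched GENCODE M21 (GRCm38), which gave gene type, exonic length (union of exons) and overlaps.

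Counts were scaled by edgeR's TMM factors (edgeR 4.0.16, R 4.3.3) on the 16408 rows with a total of 20 or more. With 1 library per group the quasi-likelihood test of edgeR could not be fitted. Ratios carry 95% exact conditional (Clopper-Pearson) intervals (Python 3.11.15, scipy 1.17.1), and contrasts between 2 genes, added after the data were seen, carry exact conditional odds ratio intervals. Widened intervals are normal intervals on the log scale with an assumed coefficient of variation added for each library. The other intervals cover counting error only and treat each read as a molecule of its own. Medians are of log2 ratios with 0.5 count added to each library. The counting interval and the rule of size were tested on counts simulated with known ratios and known library sizes. These simulated counts held counting error only. They therefore do not test the scaling, the widened intervals or variation between cultures. Alternatives included DESeq2 1.42.0 size factors.

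Named genes are the 10 members; of each list, up to 4 past the rule or otherwise the 2 with most counts; and the 5 rows nearest to a member past the rule. Other list genes serve as examples. The members and lists were chosen with earlier results of these data known. 1 listed gene is not reported here.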

Additional observations from a re-analysis of the deposited data

How the results depend on the processing

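Under 3 other scalings (total counts, DESeq2 size factors, upper-quartile factors), 2 other count filters, protein-coding rows only, a fold limit of 2 and intervals widened for a coefficient of variation of 0.1 or 0.2, the same 2 members, Sik1 and Hdac5, were past the rule, and none of the 9 ratios changed direction. Sik1 lay between 7.51 (total counts) and 7.76 (protein-coding rows), Hdac5 between 3.67 and 3.79, and Mef2d between 1.42 and 1.47, never past the rule. The number of all rows higher in the PTH library, 884, became 1386 with no filter, 543 with a total of 100 or more, 585 with protein-coding rows only, 517 with a fold limit of 2 and 475 with the interval widened for 0.2. The number lower, 581, became 983, 307, 382, 262 and 268 under the same settings in the same order. Of the MEF2 target genes, 3 in place of 5 were past the rule with the interval widened for 0.2.

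Family shares depend on the length used, and the change in share (PTH minus untreated, in percentage points) kept its sign for the 9 measured genes. By exonic length, then by the longest transcript, then by plain reads, the change was 28.3, 33.7 and 38.1 for Sik1, -8.56, -11.6 and -11.8 for Sik2, -19.8, -22.2 and -26.3 for Sik3, -6.62, -9.00 and -12.4 for Hdac4, 31.5, 32.0 and 32.3 for Hdac5, -24.9, -23.0 and -19.9 for Hdac7, -6.81, -8.81 and -8.67 for Mef2a, -1.27, -1.68 and -1.88 for Mef2c, and 8.08, 10.5 and 10.6 for Mef2d.

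No paired analysis was possible because each group had 1 library, and for the same reason leaving out a library gave no value. Hdac9 was too low to measure at this depth. Variation between cultures is unknown, and counts per gene hold neither isoforms nor protein state.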
